A study of Mus musculus with 22 samples.

Results

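The Hox clusters are 4 arrays of homeobox genes, and 38 of their genes were analysed here out of 26182 mouse genes with a curated RefSeq transcript. They were chosen by name, not by any measured value, though with earlier results of these data known. They are 10 genes of the Hoxa cluster, 10 of Hoxb, 9 of Hoxc and 9 of Hoxd. All measurements came from 16.7 mouse embryonic stem (ES) cells, a line of CAST/Ei x 129/Sv/Jae background kept in feeder-conditioned medium, so each group is a set of cultures of 1 line. Cells of the scramble KD group had received a control LNA gapmer and cells of the TERRA KD group an LNA gapmer against TERRA, the telomeric UUAGGG repeat RNA, and both were collected 12 h later. ATRX, H3K9me3 and G-quadruplex (G4) ChIP-seq and ATAC-seq were each made in 2 replicates per condition, and a list of called peaks was deposited for each of these 16 libraries. Feeder cells had been removed 1 passage before the transfection, and the same nucleofection was given to both groups. No list measures TERRA itself, so the depletion cannot be checked in these data.

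Hox genes encode transcription factors that give cells their position along the body axis and the limbs, and the order of the genes on the chromosome follows the order of their expression domains from head to tail. In ES cells the clusters are known as classical Polycomb targets, where histone marks of repression and of activation lie together and most of the genes are silent. ATRX is a chromatin remodeler known for loading histone H3.3 at repeats and for binding G-rich DNA, H3K9me3 is a mark of heterochromatin, and a G4 is a structure that DNA forms from stacked guanines. ATAC-seq marks DNA that a transposase can reach. The question was where each of these lay in the Hox clusters, and whether the positions differed between scramble KD and TERRA KD.

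On GRCm38 the listed genes span chr6:52162417-52260880 in Hoxa, chr11:96194316-96368253 in Hoxb, chr15:102921131-103036852 in Hoxc and chr2:74668225-74765142 in Hoxd. The spans measure 98.5, 174, 116 and 96.9 kb, or 485 kb in all. Hoxa genes lie on the minus strand and the others on the plus strand. In the RefSeq annotation the body of Hoxa3, a gene of thymus and pharyngeal arch development, runs over 44.0 kb and holds Hoxa4, Hoxa5 and Hoxa6, and that of Hoxd3 runs over 36.3 kb and holds Hoxd4, so 1 peak can be counted under several of these genes. A transcription start site (TSS) here is the most upstream curated start of a gene, and no 2 of the 38 windows of 1 kb on each side of it overlapped.

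The DNA of the clusters was rich in G4 motifs, which are defined here as 4 runs of at least 3 G with 1 to 7 bases of any kind between runs, on either strand. The 4 spans held 304 such motifs, or 6.27 per 10 kb, against 3.0 per 10 kb in the 100 kb on each side of the spans and 2.34 per 10 kb over chromosomes 1 to 19, X and Y. Hoxb had the highest density, with 6.96 per 10 kb, and Hoxa the lowest, with 5.48. Within 1 kb of the TSS, 33 of the 38 Hox genes (86.8%) held a motif, against 54.9% of the TSS windows of all genes. Hoxa4 and Hoxd13, the latter a gene of digit development, held most, with 7 motifs each, and Hoxa2, Hoxa9, Hoxa11, Hoxc12 and Hoxd10 held none. The median GC content of these windows was 55.5% for the Hox genes, with a range of 44.0% to 67.3%, and 50.9% for all genes. These are descriptions of the sequence, and a motif is not evidence of a folded structure.

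The tracts closest to a G4 summit are shown for the 3 genes that were singled out by their G4 peaks, since they are the G-rich letters nearest to the antibody signal. They are written 5′ to 3′ on the G-rich strand, with runs of at least 3 G in capitals. The Hoxa7 tract (chr6:52216963-52216986, minus strand) lies in the intron of Hoxa7 and 2 bp from the summit of scramble KD replicate 1. The Hoxa13 tract (chr6:52259763-52259787, plus strand) lies in the intron of Hoxa13, 71 bp from the summit of TERRA KD replicate 1. The Hoxb5 tract (chr11:96303450-96303485, minus strand) lies at −45 bp from the TSS, in an intron of the antisense transcript Hoxb5os, and is the closest one found although it is 452 bp from the summit and outside the peak.
Hoxa7 tract: GGGGcGGGagcaGGGcgcGGGGGG
Hoxa13 tract: GGGagaatgcGGGGGGGGGGGGGGG
Hoxb5 tract: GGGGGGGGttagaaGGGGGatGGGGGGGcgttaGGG

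The lists differed in length and the libraries in depth. For G4 and ATAC the deeper of the libraries gave the longer lists, and for ATRX and H3K9me3 they did not. ATRX lists were 7321 and 13652 peaks long without the knockdown and 41384 and 21718 with it, from 4104486 to 15506154 ChIP tags, and the longest of these lists came from the library with the fewest tags. H3K9me3 lists held 25490 to 76213 peaks, G4 lists 140119 to 389434 and ATAC lists 78571 to 103911. The G4 libraries ranged most widely in depth, from 2961038 tags in scramble KD replicate 1 to 24588605 in scramble KD replicate 2. Values of 1 list cannot be set against those of another, so peaks are described by presence and by their rank in their own list, where 1% is near the strongest and 100% the weakest. With 2 libraries per condition the two-sided exact permutation test cannot give a p under 0.333, so no difference between TERRA KD and scramble KD could pass 0.05. The study calls the ChIP-seq replicates biological. A site without a peak is one where enrichment was not detectable at that depth.

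As a check of the labelled cell type, ATAC peaks within 1 kb of the TSS were found at 9, 9, 10 and 9 of 10 ES cell markers in the order scramble KD replicates 1 and 2, TERRA KD replicates 1 and 2, and Pou5f1 and Sox2 had a peak in all 4 lists. Of 10 fibroblast markers, which feeder cells would carry, 6, 6, 5 and 7 had one, with none in any list at Col3a1, Pdgfra or Fap. All 4 neural markers and 1 of 3 hematopoietic markers had a peak in each list, so a peak at a TSS does not tell cell types apart here.

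ATRX peaks at Hox genes were seen almost only in the TERRA KD lists, but at different genes in each replicate. Within 1 kb of the TSS, ATRX peaks were counted at 1 and 0 of 38 Hox genes for replicates 1 and 2 of scramble KD, and at 6 and 8 for those of TERRA KD. Over all genes the shares were 1.07% and 0.592% under scramble KD and 8.23% and 4.84% under TERRA KD. The Hox shares were therefore 2.63% and 0% under scramble KD and 15.8% and 21.1% under TERRA KD, so that the conditions did not overlap. The mean difference was 17.1 percentage points (SD 1.86 within scramble KD and 3.72 within TERRA KD, n = 2 each, p = 0.333 by the exact permutation test, the smallest it can give). The Hox share minus that of all genes was 1.56 and −0.592 points under scramble KD and 7.56 and 16.2 points under TERRA KD. The mean excess over the 4 libraries was 6.19 points (SD 7.52, n = 4, exact sign-flip p = 0.25), 2.84 without TERRA KD replicate 2 and 2.24 with equal numbers of top-ranked peaks. When only as many peaks were taken from each list as the shortest list holds, the difference between conditions was 3.95 points, and with a −log10 p of at least 5 no Hox TSS had a peak in any list and the difference was 0.

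**Figure D1:**
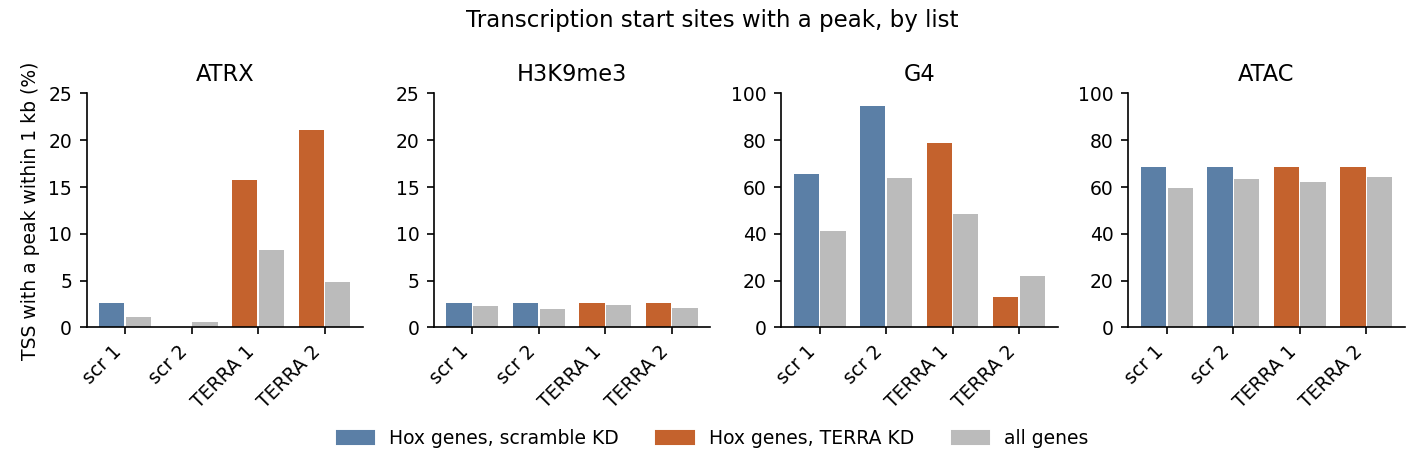
Share of transcription start sites with a peak within 1 kb (percent, y axis) in each peak list (x axis, scr for scramble KD and TERRA for TERRA KD, with the replicate number), for the 38 Hox genes (coloured bars) and all 26182 genes (grey bars). Each bar is 1 library, without error bars; ATRX and H3K9me3 are drawn to 25% and G4 and ATAC to 100%. Hox ATRX shares are 15.8% and 21.1% under TERRA KD and at most 2.63% under scramble KD, and the G4 share of TERRA KD replicate 2, 13.2%, stands far below the other 3.

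None of the 38 genes had an ATRX peak within 1 kb in both TERRA KD lists, against 0.768% of all genes. In all, 14 Hox genes (36.8%) had one in at least 1 TERRA KD list and in neither scramble KD list, against 12.0% of all genes. Hoxd11 had one in a scramble KD list alone, and the remaining 23 genes (60.5%) had none in any list, against 86.4% of all genes. The ATRX peaks rest on few reads, with 4 to 10 tags in TERRA KD replicate 1 and 8 to 25 in TERRA KD replicate 2 for the peaks at Hox TSS.

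In Hoxa, 4 genes carried an ATRX peak. Hoxa11, needed for the forearm and the uterus, had the highest rank of the TERRA KD replicate 1 peaks, at 8.98%, with 10 tags, a fold enrichment over the local background of 12.99 and a summit 154 bp downstream of the TSS. Hoxa7, a gene of the trunk, had the highest rank of TERRA KD replicate 2, at 5.86%, with 25 tags, a fold enrichment of 4.14 and a summit at −1034 bp, upstream of the TSS. Hoxa3 and Hoxa4 had peaks in TERRA KD replicate 2 that ranked at 20.1% and 34.6%, with 14 and 11 tags. The summits lay at 648 bp from the Hoxa3 start and at −419 bp from that of Hoxa4, so these peaks were on different sides of the starts.

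In Hoxb, 6 genes carried an ATRX peak, 3 in each TERRA KD list. Hoxb7, Hoxb5 and Hoxb2, the last a gene of hindbrain segments, had one in TERRA KD replicate 1 that ranked at 76.8%, 63.5% and 38.2%, with 6, 4 and 6 tags. Hoxb6, Hoxb4 and Hoxb1, the last the gene that sets the identity of a hindbrain segment, had one in TERRA KD replicate 2 that ranked at 24.96%, 47.8% and 95.4%, with 11, 11 and 10 tags. These ranks were spread over the stronger and the weaker parts of their lists. In Hoxc, Hoxc9 and Hoxc10, genes of thoracic and lumbar motor neurons, had peaks in TERRA KD replicate 1 at ranks of 40.6% and 92.2%, with 5 and 4 tags.

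In Hoxd, Hoxd11, which acts beside Hoxa11 in the forearm, had the only ATRX peak of the scramble KD lists near a Hox TSS, in replicate 1, with 6 tags, a rank of 39.2% and a summit at −99 bp. Hoxd12, a gene of the distal limb, and Hoxd1 had peaks in TERRA KD replicate 2 at ranks of 33.8% and 63.0%, with 11 and 8 tags. Over the Hox TSS with a peak, the median rank was 52.0% in TERRA KD replicate 1 and 34.2% in replicate 2, against 54.4% and 42.1% for all TSS with a peak in the same lists. The Hox peaks thus ranked close to those of other genes in replicate 1 and somewhat stronger in replicate 2.

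The upstream 250 bases of Hoxa11 and Hoxd11 are printed because an ATRX peak covered them, all 250 of Hoxa11 (TERRA KD replicate 1) and 224 of Hoxd11 (scramble KD replicate 1), and those of Hoxa7 and Hoxa13 because a G4 peak of scramble KD replicate 2 covered all 250 bases. They come from RefSeq on GRCm38.p6, whose promoter table held 22 of the 38 genes, are written 5′ to 3′ on the strand of the gene and have runs of at least 3 G or 3 C in capitals. Their places are chr6:52245811-52246060 (minus strand) for Hoxa11, which is also an exon of the noncoding Hoxa11os, chr2:74679308-74679557 (plus strand) for Hoxd11, chr6:52218574-52218823 (minus strand) for Hoxa7 and chr6:52260881-52261130 (minus strand) for Hoxa13.
Hoxa11 upstream: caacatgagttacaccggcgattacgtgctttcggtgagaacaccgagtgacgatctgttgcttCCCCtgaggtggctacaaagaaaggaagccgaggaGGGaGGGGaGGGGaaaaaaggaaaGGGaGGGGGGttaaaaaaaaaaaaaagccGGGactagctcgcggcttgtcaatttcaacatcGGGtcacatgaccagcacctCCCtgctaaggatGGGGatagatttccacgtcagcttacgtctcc
Hoxd11 upstream: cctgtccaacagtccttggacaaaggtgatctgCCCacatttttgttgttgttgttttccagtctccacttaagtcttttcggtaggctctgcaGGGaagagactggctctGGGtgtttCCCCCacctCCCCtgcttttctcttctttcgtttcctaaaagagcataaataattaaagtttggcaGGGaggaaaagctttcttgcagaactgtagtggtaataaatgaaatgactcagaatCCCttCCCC
Hoxa7 upstream: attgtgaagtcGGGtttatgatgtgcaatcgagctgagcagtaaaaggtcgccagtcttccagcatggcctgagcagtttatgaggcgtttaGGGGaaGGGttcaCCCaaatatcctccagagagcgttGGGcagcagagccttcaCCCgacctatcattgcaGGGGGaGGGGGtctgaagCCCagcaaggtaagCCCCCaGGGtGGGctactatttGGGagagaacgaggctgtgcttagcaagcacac
Hoxa13 upstream: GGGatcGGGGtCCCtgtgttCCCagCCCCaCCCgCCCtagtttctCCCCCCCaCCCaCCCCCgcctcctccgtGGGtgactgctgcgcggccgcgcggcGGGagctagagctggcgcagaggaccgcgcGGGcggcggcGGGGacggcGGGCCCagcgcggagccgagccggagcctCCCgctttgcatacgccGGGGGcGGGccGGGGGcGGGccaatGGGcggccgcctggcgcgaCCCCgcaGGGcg

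The 4 stretches differ in their runs. That of Hoxa13, a gene of digits and the genital tract, has 24 runs, a GC content of 80.0% and 3 G4 motifs. Those of Hoxa11, Hoxd11 and Hoxa7 have 10, 8 and 13 runs, GC contents of 52%, 44.8% and 54.8% and no motif. Of the upstream stretches of the same length in the whole table, 16.2% hold a motif, and of those of the 22 Hox genes 6 do (27.3%).

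Across the whole spans there were 2 and 0 ATRX peaks without the knockdown of TERRA and 21 and 20 with it. They covered 0.128% and 0% of the 485 kb under scramble KD and 2.23% and 2.69% under TERRA KD, a mean difference of 2.40 percentage points (SD 0.0904 and 0.326, n = 2 each, exact permutation p = 0.333). As a share of the list, 0.0273% and 0% of the scramble KD peaks and 0.0507% and 0.0921% of the TERRA KD peaks lay in the spans, which is a log2 ratio of the mean shares of 2.39 (exact permutation p = 0.333). Only 2 scramble KD peaks stand behind this ratio. With equal numbers of top-ranked peaks the coverage difference was 0.690 points, and the log2 ratio of list shares was 1.39 without scramble KD replicate 2. Over gene bodies, unlike at the TSS, the Hox share was below that of all genes in every library. A longer body has more room for a peak, and the body shares were not matched for gene length in any assay. An ATRX peak lay over 1, 0, 11 and 8 of the 38 Hox gene bodies, or 2.63%, 0%, 28.9% and 21.1%, against 9.13%, 11.8%, 31.6% and 23.6% of all gene bodies. The body difference between conditions was 23.7 points (SD 1.86 and 5.58, n = 2 each, exact permutation p = 0.333), and 6.58 with equal numbers of peaks.

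The clusters were not alike in this. In TERRA KD replicate 2, 11 of the 20 peaks lay in Hoxa, where they covered 8.37% of the span against 1.70% of its flanks, while Hoxb, Hoxc and Hoxd were covered to 1.56%, 0.944% and 1.02%. In TERRA KD replicate 1 the peaks were spread as 6, 5, 8 and 2 over Hoxa, Hoxb, Hoxc and Hoxd, and Hoxc was covered to 3.40%, close to Hoxa with 3.36%, where the flanks were covered to 3.78%. The mean excess of the spans over their flanks was 0.445 percentage points (SD 1.24, n = 4, exact sign-flip p = 0.625), and it was −0.120 without TERRA KD replicate 2. The Hoxa flanks also held ATRX peaks under scramble KD, where they covered 1.84% and 1.23% and the span 0%.

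**Figure D2:**
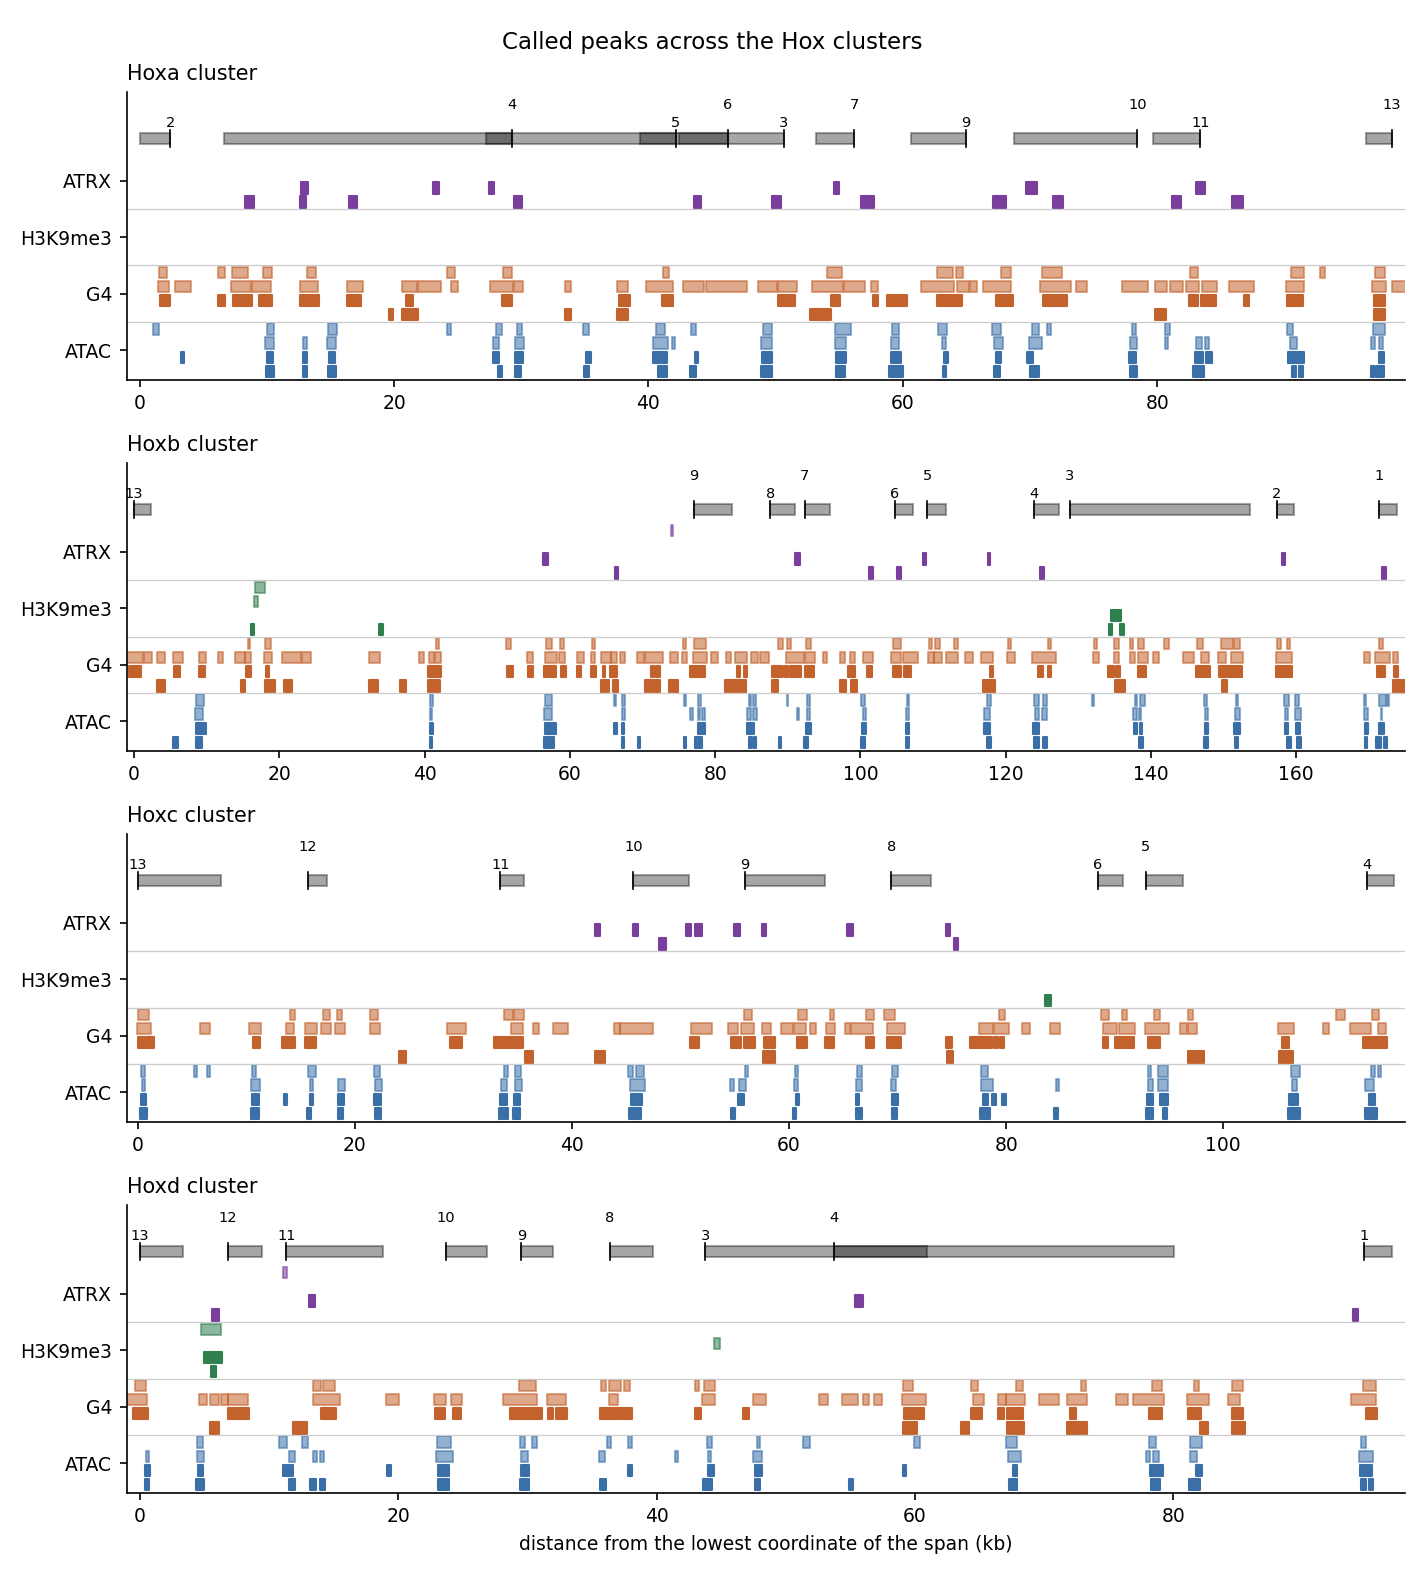
Called peaks over the 4 Hox clusters (x axis, distance in kb from the lowest coordinate of the span). In each panel the rows are the lists of ATRX, H3K9me3, G4 and ATAC from top to bottom, each in the order scramble KD 1 and 2 (pale) and TERRA KD 1 and 2 (dark), grey boxes are bodies of the listed genes and ticks with numbers mark their start sites. Peaks shorter than 0.25 kb would be drawn at 0.25 kb. ATRX peaks appear in the TERRA KD rows with 2 exceptions, G4 peaks thin out in the last G4 row, and of the 102 merged ATAC sites 57 are present in all 4 rows.

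Merging ATRX peaks that touch gave 42 sites in the spans, of which 40 (95.2%) were in at least 1 TERRA KD list and in neither scramble KD list, against 73.9% of all merged ATRX sites. Only 1 of the 42 was in both TERRA KD lists (2.38%, against 2.24% of all sites in both and in neither scramble KD list). It lies in the intron of Hoxa3 and over the start of the noncoding LOC115490409 (chr6:52175179, plus strand), reaching into an exon of that gene. The peaks there had 5 tags at a rank of 88.7% in replicate 1 and 9 tags at 73.4% in replicate 2. The 444 bp that both peaks share hold 1 G4 motif, and the middle 300 of them (chr6:52175166-52175465, plus strand) are printed with the same capitals, since this is the one place in the clusters where the replicates met.
Hoxa3 intron site: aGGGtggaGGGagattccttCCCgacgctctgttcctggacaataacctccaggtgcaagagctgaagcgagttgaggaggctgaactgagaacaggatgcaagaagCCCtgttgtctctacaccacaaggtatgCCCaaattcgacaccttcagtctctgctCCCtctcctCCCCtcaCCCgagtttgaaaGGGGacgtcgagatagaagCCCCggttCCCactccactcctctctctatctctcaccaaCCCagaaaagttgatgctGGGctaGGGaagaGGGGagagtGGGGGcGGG

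Of the 42 sites, 15 lay within 1 kb of a Hox TSS, another 15 over a Hox gene body, 4 over another gene and 8 between genes. In TERRA KD replicate 1, 12 of the 21 span peaks (57.1%) overlapped a G4 peak of the same condition and replicate, against 19.2% of all ATRX peaks of that list, and 10 (47.6%) overlapped an ATAC peak, against 15.3%. In replicate 2, 2 of 20 (10%) overlapped a G4 peak, against 26.8%, and 7 (35%) an ATAC peak, against 15.7%. The overlap with ATAC peaks was thus above that of the list in both replicates and the overlap with G4 peaks only in replicate 1. The spans were also covered more than the genome. In TERRA KD replicates 1 and 2, ATAC peaks covered 8.84% and 9.21% of the spans, against 1.88% and 2.32% of the genome. G4 peaks covered 21.5% and 8.87% of the spans, against 4.77% and 7.45%. The part of this coverage in the overlaps was not tested. The G4 list of TERRA KD replicate 2 itself held few peaks in the clusters, as given below, and the part of that in the G4 overlap was not tested.

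Few H3K9me3 peaks lay in the Hox clusters in either condition, and at the TSS their share was near that of all genes. Within 1 kb of the TSS, 1 of 38 genes had a peak in each of the 4 lists (2.63%), against 2.28%, 1.96%, 2.36% and 2.07% of all genes, and the difference between conditions was 0. The Hox share minus that of all genes had a mean of 0.465 points (SD 0.184, n = 4, exact sign-flip p = 0.125), which is less than 1 gene. Hoxd12 alone had one in both TERRA KD lists (2.63%, against 0.821% of all genes), and 36 genes (94.7%) had none in any list, against 94.8%. Over gene bodies, not matched for length, the Hox shares were 0%, 2.63%, 2.63% and 2.63%, against 13.9%, 21.3%, 13.2% and 21.2% of all gene bodies. The spans held 2, 2, 2 and 6 peaks, which covered 0.605%, 0.186%, 0.581% and 0.564% of the bases. The flanks were covered more, by 2.98%, 1.403%, 2.47% and 1.499%, and the span was below the flanks in all 4 libraries, by a mean of 1.60 percentage points (spans minus flanks −1.60, SD 0.652, n = 4, exact sign-flip p = 0.125, the smallest it can give). This rests on Hoxa, whose flanks were covered to 4.86% to 11.1% and whose span held no H3K9me3 peak in any list, and with flanks of 50 kb the sign turned, to 0.254 points.

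Hoxd12 had H3K9me3 near its start in most lists. It had a peak upstream in scramble KD replicate 1 and in both TERRA KD lists, with 39, 30 and 6 tags, ranks of 53.5%, 85.2% and 34.1% and summits at −1271, −1304 and −1029 bp from the TSS, and none in scramble KD replicate 2. Hoxd3, a gene of the upper neck vertebrae, had one in scramble KD replicate 2 alone, with 5 tags and a rank of 73.8%. In both conditions a peak was thus seen at Hoxd12 and the conditions overlapped. Elsewhere in the spans, 1 of the 7 merged H3K9me3 sites, in the body of Hoxb3, was in both TERRA KD lists and neither scramble KD list. Over all merged sites 1.79% were. Its replicate 1 peak ranked at 88.5%, and it joins 2 separate replicate 2 peaks with 5 and 6 tags, at ranks of 64.7% and 79.8%. Another site, between Hoxb13 and Hoxb9, was in both scramble KD lists and neither TERRA KD list, against 0.994% of all sites. A TERRA KD replicate 2 peak ended just short of that site.

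Upstream of Hoxd12 was the one place in the spans where an ATRX and an H3K9me3 peak of the same condition and replicate overlapped. These 2 lists were called against the same input, and the part of that in the overlap was not tested. In TERRA KD replicate 2 they share 365 bp between Hoxd13 and Hoxd12, where a G4 peak of the same condition and replicate also lay, with 15 tags at a rank of 80.1%. The middle 300 bases (chr2:74673824-74674123, plus strand) have a GC content of 58.7% and the same capitals as above. Over all H3K9me3 peaks of that list 5.28% overlapped an ATRX peak, and 1 of the 6 in the spans did.
Hoxd12 upstream site: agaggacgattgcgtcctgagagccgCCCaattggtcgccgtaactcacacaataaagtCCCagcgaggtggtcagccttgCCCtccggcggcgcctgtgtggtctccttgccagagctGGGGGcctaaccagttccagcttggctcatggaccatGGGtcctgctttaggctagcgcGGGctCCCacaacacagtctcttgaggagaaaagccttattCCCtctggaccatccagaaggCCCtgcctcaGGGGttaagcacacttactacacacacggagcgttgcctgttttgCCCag

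G4 peaks lay at most Hox genes in 3 lists and at few in TERRA KD replicate 2. That list was neither the shortest nor from the shallowest G4 library, with 225024 peaks from 13127555 tags. The scramble KD replicate 1 list held 140119 peaks from 2961038 tags. Why TERRA KD replicate 2 stood apart was not tested. Within 1 kb of the TSS, a G4 peak was present at 25 and 36 of 38 Hox genes for replicates 1 and 2 of scramble KD, and at 30 and 5 for those of TERRA KD. The shares were 65.8%, 94.7%, 78.9% and 13.2%, against 41.2%, 64.1%, 48.5% and 22.1% of all genes. TERRA KD minus scramble KD was 13.2 points in replicate 1 and −81.6 points in replicate 2. The mean difference was −34.2 points (SD 20.5 within scramble KD and 46.5 within TERRA KD, n = 2 each, exact permutation p = 0.667), and −1.32 points without TERRA KD replicate 2, so the groups overlapped and the difference is within the spread of the replicates.

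Hox genes had G4 peaks more often than genes at large in the first 3 of these lists, by 24.6, 30.6 and 30.4 points, and the difference was −8.96 points in TERRA KD replicate 2. Among windows with a G4 motif, the Hox shares were 66.7%, 93.9%, 75.8% and 15.2%, against 57.2%, 75.3%, 64.2% and 23.4% of all genes. Of the 5 Hox genes without a motif, 3, 5, 5 and 0 had a peak, against 21.8%, 50.5%, 29.5% and 20.5% of all genes without one. The part of the motif in the excess was not tested. The mean excess was 19.2 points (SD 18.96, n = 4, exact sign-flip p = 0.25), and 28.6 points without that library. Over the 485 kb, G4 peaks covered 11.9% and 42.2% under scramble KD and 21.5% and 8.87% under TERRA KD, against 4.13%, 24.9%, 8.16% and 10.1% of the flanks. The coverage difference between conditions was −11.9 points (SD 21.4 and 8.92, n = 2 each, exact permutation p = 0.667). Over the gene bodies, 33, 38, 35 and 12 of 38 Hox genes lay under a G4 peak, or 86.8%, 100%, 92.1% and 31.6%, against 63.1%, 83.6%, 70.8% and 69.0% of all genes. For the coverage, leaving out scramble KD replicate 2, the deepest library, gave 3.29, and leaving out TERRA KD replicate 2 gave −5.56.

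**Figure D3:**
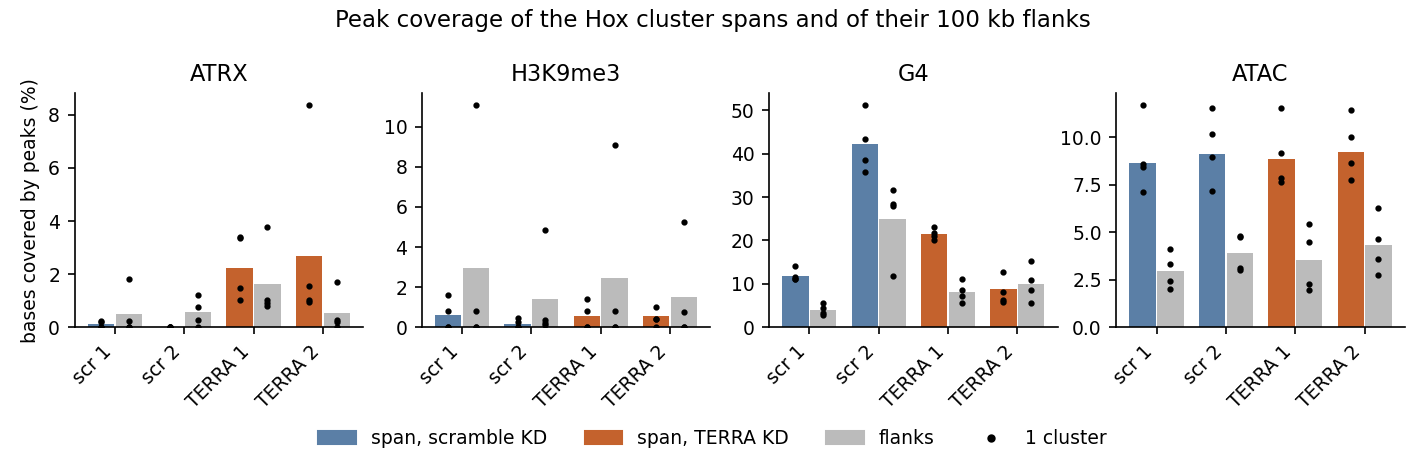
Share of bases covered by peaks (percent, y axis) in each list (x axis) for the 4 Hox cluster spans together (coloured bars) and for their flanks of 100 kb on each side (grey bars), with the single clusters as black points. Each panel has its own scale. ATAC covers 8.67% to 9.21% of the spans in the 4 lists, G4 covers between 8.87% (TERRA KD replicate 2) and 42.2% (scramble KD replicate 2), and the H3K9me3 flank bars are raised by the Hoxa cluster.

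By cluster, the G4 peaks were counted at 7, 10, 7 and 1 of 10 Hoxa genes, 6, 9, 8 and 2 of 10 Hoxb genes, 7, 9, 8 and 0 of 9 Hoxc genes and 5, 8, 7 and 2 of 9 Hoxd genes, in the order scramble KD replicates 1 and 2, TERRA KD replicates 1 and 2. In all 4 clusters TERRA KD replicate 2 was lowest and scramble KD replicate 2 highest. Of the 23 genes with a G4 peak in each of the other 3 lists, 22 (57.9% of the 38) had none in that one, against 20.02% of all genes. These 2 shares also depend on how often a gene had a peak in the other 3 lists. Among all genes, 5241 had this pattern and 2398 had a peak in all 4 lists. In both scramble KD lists 25 genes (65.8%) had a peak, against 34.7% of all genes, and in both TERRA KD lists 4 did, against 14.8%. The 5 genes with a peak in TERRA KD replicate 2 were Hoxa13, Hoxb8, Hoxb13, a gene of the tail and the prostate, Hoxd11 and Hoxd12, and their ranks there were 41.4% to 99.98%, with a median of 80.1% against 46.3% for all genes with a peak in that list.

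Hoxa13 was the only gene with a G4 peak within 1 kb in all 4 lists (2.63%, against 9.16% of all genes). Its peaks ranked at 20.9% and 18.8% under scramble KD, with 10 and 48 tags, and at 97.9% and 99.98% under TERRA KD, with 12 and 21 tags. The peaks thus ranked weaker in both TERRA KD lists, but the lists are of unequal length and a change at this gene was not tested. All 4 summits lay 849 to 1022 bp into the gene, near the tract printed above. Hoxa7 and Hoxb5 had a G4 peak in both scramble KD lists and in neither TERRA KD list (5.26%, against 4.74% of all genes, a share near the background). At Hoxa7 this turned on the edge of the window. The scramble KD replicate 1 peak began 958 bp from the TSS, with 10 tags, and TERRA KD replicate 1 had a peak 1077 bp from it, with 13 tags, so that merged over the lists this site was in all 4. At Hoxb5 the scramble KD peaks, with 5 and 34 tags and ranks of 51.8% and 22.4%, lay 206 and 122 bp from the TSS, the nearest TERRA KD replicate 1 peak was 2207 bp away, and TERRA KD replicate 2 had none within 3 kb.

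Hoxb3 had no G4 peak within 1 kb of its start in any list (1 gene, 2.63%, against 25.1% of all genes), although its body held some. Hoxd11 had one in TERRA KD replicate 2 alone (2.63%, against 4.30% of all genes with one under TERRA KD only), with 25 tags and a rank of 41.4%. Hoxa6, Hoxa10, Hoxc10 and Hoxd4 had one in scramble KD replicate 2 alone, the deepest library. Merged over the 4 lists, the spans held 174 G4 sites, of which 11 (6.32%) were in all 4 lists, against 9.30% of all G4 sites. Only 2 of these 11 lay within 1 kb of a Hox TSS, and 5 more lay over the bodies of Hoxb3 and Hoxd3, 1 of them also over Hoxd4. The sites in both scramble KD lists and TERRA KD replicate 1 but not in TERRA KD replicate 2 were 43 (24.7%), against 4.27% of all sites. Sites in both scramble KD lists and in neither TERRA KD list were 12 (6.90%), against 1.70%. Beside the 43 stand the 11 span sites in all 4 lists. Over all sites, 20416 lacked only TERRA KD replicate 2 and 44444 were in all 4 lists.

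**Figure D4:**
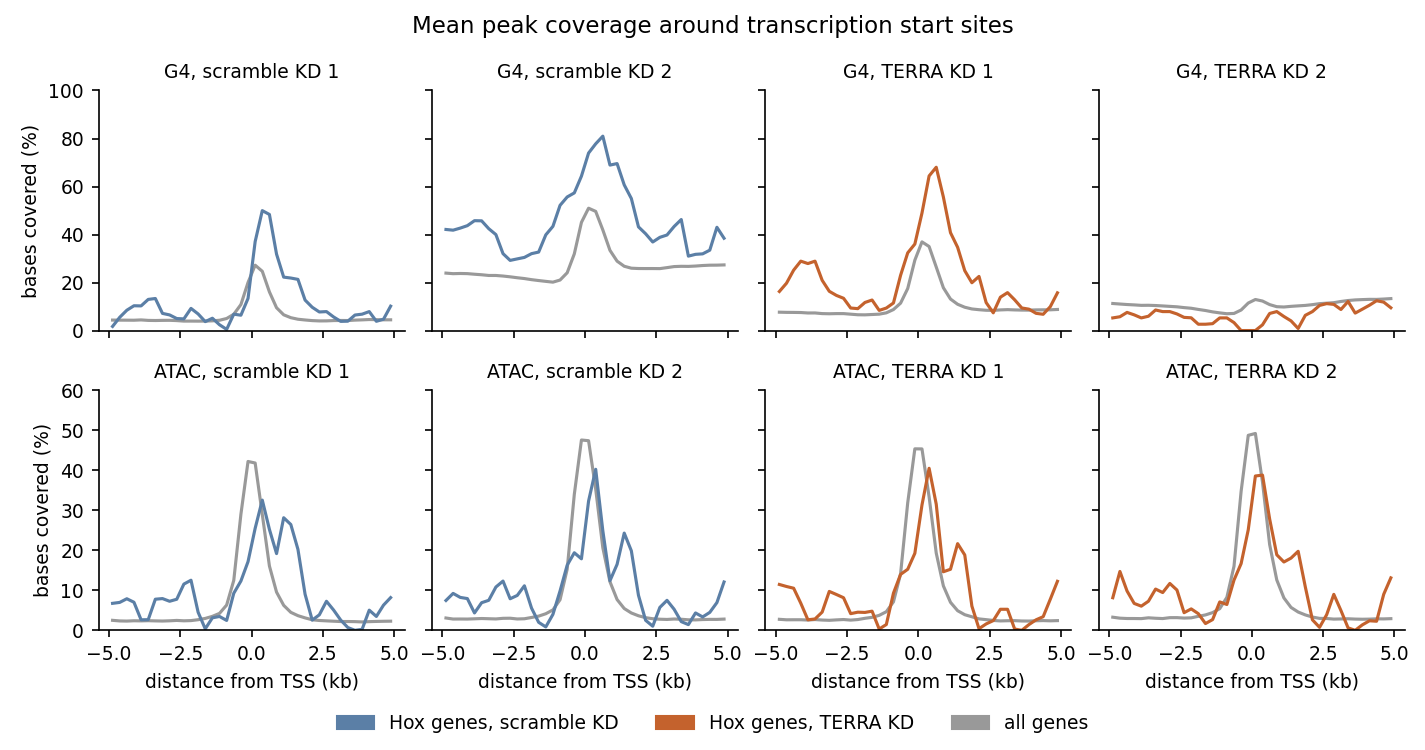
Mean coverage by G4 peaks (upper row, drawn to 100%) and ATAC peaks (lower row, drawn to 60%) in bins of 250 bp (y axis, percent of bases) around the start sites (x axis, distance in kb along the direction of the gene), for the Hox genes (coloured) and all genes (grey), 1 panel per list and without error bars. Hox G4 coverage peaks downstream of the start in 3 lists and is at 0% next to the start in TERRA KD replicate 2. ATAC coverage of Hox genes is below that of all genes at the start and has a shoulder about 1.4 kb into the gene.

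The G4 peaks of Hox genes lay downstream of the start. In the bin centred 625 bp into the gene, G4 peaks covered 48.4% and 81.0% of the bases for replicates 1 and 2 of scramble KD and 68.0% for TERRA KD replicate 1, against 16.1%, 41.9% and 26.5% for all genes. In TERRA KD replicate 2 they covered 7.12%, against 10.8%, and 0% of the bases in the 250 bp on each side of the start, where all genes were covered to 11.46% and 12.9%. G4 peaks in the spans held a G4 motif in 69.5% and 63.4% of cases under scramble KD and 65.5% and 67.4% under TERRA KD, against 37.9%, 33.7%, 41.5% and 34.8% of all peaks of those lists. The share with a motif was thus alike in the library that stood apart and in the others.

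ATAC peaks were found at the same number of Hox genes in every library. Within 1 kb of the TSS, 26 of 38 genes (68.4%) had one in each of the 4 lists, against 59.4% and 63.5% of all genes under scramble KD and 62.3% and 64.2% under TERRA KD. The difference between conditions was 0, and the Hox share exceeded that of all genes by 9.02, 4.93, 6.09 and 4.21 points, a mean of 6.06 (SD 2.12, n = 4, exact sign-flip p = 0.125, the smallest it can give). The excess depended on the window and the peaks counted: it was 16.6 points with a window of 2 kb, −2.71 with 500 bp, 3.70 with equal numbers of top-ranked peaks, −1.18 with peaks counted by their centre and −2.56 with a −log10 p of at least 5. ATAC peaks covered 8.67% and 9.15% of the spans under scramble KD and 8.84% and 9.21% under TERRA KD, a difference of 0.113 points (SD 0.339 and 0.261, n = 2 each, exact permutation p = 0.667). Over the gene bodies, 33, 29, 32 and 32 of 38 Hox genes lay under an ATAC peak, or 86.8%, 76.3%, 84.2% and 84.2%, against 68.2%, 71.9%, 70.6% and 73.0% of all genes. The flanks were covered to 2.99%, 3.93%, 3.54% and 4.32%, and the span exceeded them in all 4 libraries by 4.88 to 5.68 points (mean 5.27, SD 0.329, n = 4, exact sign-flip p = 0.125).

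The ATAC peaks at Hox genes were weak for promoters. Their median rank was 58.4% and 54.4% under scramble KD and 56.6% and 43.3% under TERRA KD, against 22.1%, 17.9%, 19.1% and 16.6% for all genes with a peak. Hoxc13, a gene of hair and nail keratins, stood out from the rest, with fold enrichments of 11.8 and 14.5 under scramble KD and 11.8 and 11.51 under TERRA KD, ranks of 3.03% to 5.45% and summits at −380 to −306 bp from the start. Ordered by the weakest of its 4 ranks, the next genes with a peak in all 4 lists were Hoxa3, with ranks of 20.6% to 29.3%, Hoxc10, with 39.4% to 47.9%, Hoxd13, with 25.4% to 48.3%, Hoxd10, with 29.1% to 52.4%, and Hoxa5, a gene of lung development, with 40.1% to 53.2%. By the strongest rank the order was different, since Hoxa4 reached 19.3%, Hoxa7 24.5% and Hoxd1 28.5% in 1 list. The summits at Hoxa3 and Hoxa5 lay 1386 to 1492 bp and 904 to 1268 bp into the gene, so these peaks were not at the start itself.

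In all, 24 of the 38 genes (63.2%) had an ATAC peak in all 4 lists, against 57.1% of all genes, and 11 (28.9%) had none in any list, against 32.8%. Only 3 varied: Hoxa2 had a peak in replicate 1 of both conditions, Hoxa11 in all lists except scramble KD replicate 1, and Hoxd8 in all except TERRA KD replicate 1. No Hox gene had a peak in both lists of 1 condition and in neither of the other, against 0.600% of all genes for TERRA KD and 0.241% for scramble KD, and none had one under TERRA KD only, against 2.54%. The 11 genes without one were Hoxa6, Hoxa9, Hoxb2, Hoxb3, Hoxb5, Hoxb6, Hoxb8, Hoxb13, Hoxc6, Hoxd4 and Hoxd12, of which 6 are in Hoxb, where only 4 of 10 genes had a peak in each list, against 8 of 9 in Hoxc. The windows of these 11 genes had a median GC content of 51.1% (44.0% to 58.0%), and those of the 24 had 55.9% (52.2% to 67.3%).

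**Figure D5:**
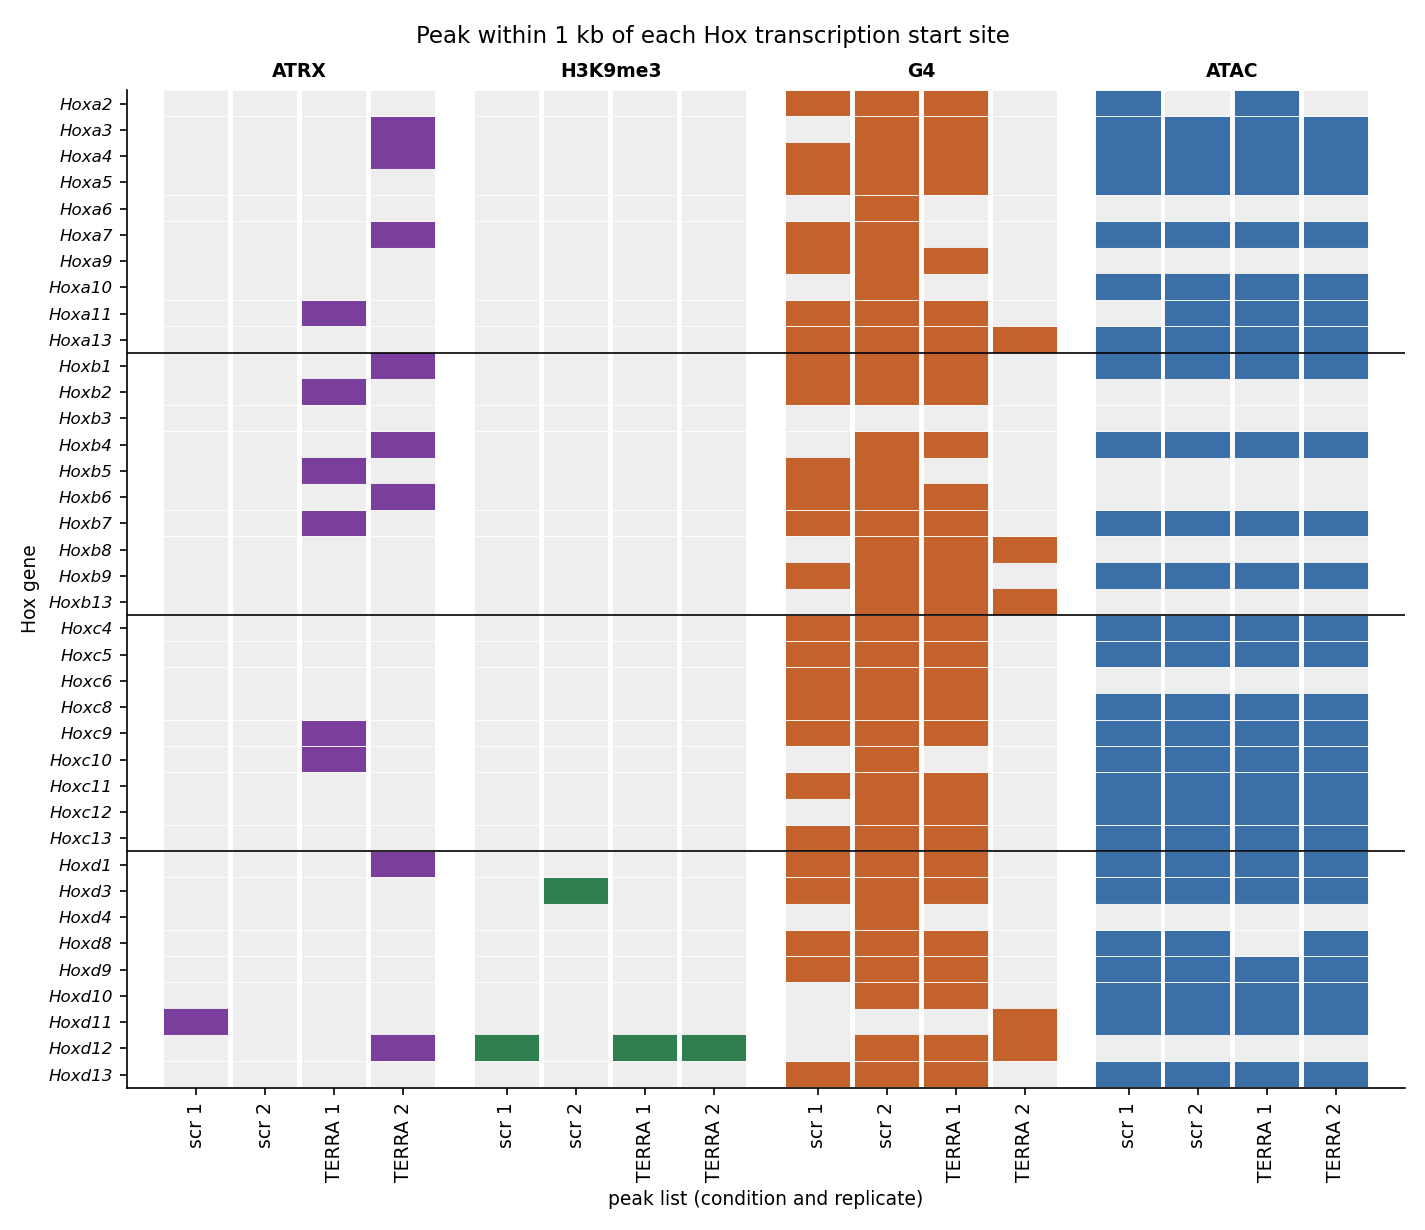
Presence of a peak within 1 kb of the start site for each of the 38 Hox genes (y axis, ordered by cluster and number) in each of the 16 lists (x axis). A filled cell is a gene with a peak in that list and a grey cell one without. ATAC cells are filled for the same 24 genes in all 4 lists, ATRX cells never fill in both TERRA KD lists of 1 gene, and the last G4 column holds 5 filled cells.

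Read along the clusters, the ATAC peaks were at 12, 13, 13 and 13 of 16 posterior genes (groups 9 to 13), 9, 9, 8 and 9 of 15 central genes (groups 4 to 8) and 5, 4, 5 and 4 of 7 anterior genes (groups 1 to 3). ATRX peaks in TERRA KD replicates 1 and 2 were at 3 and 1 of the posterior, 2 and 4 of the central and 1 and 3 of the anterior genes, so that the replicates did not share an order. The 15 genes with an ATRX peak in any list included 10 of the 24 with an ATAC peak in every list and 4 of the 11 with none. Merged over the lists, the spans held 102 ATAC sites, of which 57 (55.9%) were in all 4 lists, against 41.3% of all ATAC sites, and 23 of the 57 lay within 1 kb of a Hox TSS, 15 over a Hox gene body, 6 over another gene and 13 between genes. ATAC peaks in the spans overlapped a G4 peak of the same condition and replicate in 46.3% and 88.6% of cases under scramble KD and 64.9% and 7.59% under TERRA KD, against 21.5%, 48.4%, 32.3% and 17.9% of all ATAC peaks, the same order as the G4 counts at Hox TSS.

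The clusters also hold 23 other RefSeq genes, 17 of them long noncoding RNAs and 6 microRNAs, whose windows often share peaks with the Hox genes. ATRX peaks were within 1 kb of 0 and 0 of these under scramble KD and 5 and 4 under TERRA KD, against 1.07%, 0.592%, 8.23% and 4.84% of all genes. LOC115490409 and Hoxa11os, the antisense partner of Hoxa11, had one in both TERRA KD lists (2 of 23, against 0.768% of all genes). At LOC115490409 this is the Hoxa3 intron site printed above, and at Hoxa11os the 2 lists held different peaks that do not overlap. G4 peaks were at 13 and 22 under scramble KD and 18 and 4 under TERRA KD, against 41.2%, 64.1%, 48.5% and 22.1% of all genes. ATAC peaks were at 11, 13, 15 and 13, against 59.4%, 63.5%, 62.3% and 64.2%. H3K9me3 was at 1, Gm38462, in scramble KD replicate 2. Hotair, a noncoding RNA of the Hoxc cluster known for its link to Polycomb, had no peak of any assay within 1 kb, and Mir10a and Mir10b had no ATRX or H3K9me3 peak.

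Genes that act with or upstream of the Hox genes were counted in the same way, and are to be read beside the shares of all genes just given. Of 14 cofactors and upstream homeobox regulators (the Pbx, Meis, Pknox, Cdx and Evx genes), 13, 14, 14 and 14 had an ATAC peak, 10, 9, 12 and 3 a G4 peak, 0, 0, 1 and 0 an ATRX peak and none an H3K9me3 peak in any list. Of 18 Polycomb and Trithorax regulators, which keep Hox genes silent or active, 16, 17, 16 and 17 had an ATAC peak, 15, 16, 15 and 1 a G4 peak and 0, 0, 3 and 3 an ATRX peak. Of 32 genes of other developmental transcription factor families (Gata, Pax, Lhx, Foxa and Tbx), 25, 26, 24 and 27 had an ATAC peak, 21, 32, 29 and 8 a G4 peak and 0, 0, 4 and 1 an ATRX peak. Of 58 clustered protocadherins, the other large gene arrays compared here, 35, 40, 38 and 42 had an ATAC peak, 4, 27, 17 and 9 a G4 peak, 1, 0, 5 and 1 an ATRX peak and 7, 3, 5 and 1 an H3K9me3 peak. The G4 shares in TERRA KD replicate 2 were 21.4% of the cofactors, 5.56% of the Polycomb and Trithorax regulators, 25% of the other families and 15.5% of the protocadherins, against 22.1% of all genes, where this list was also the lowest. Differences between these lists and the Hox genes were not tested.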

How the data were processed

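Per the study's methods and the file headers, the authors trimmed reads (Trim Galore 0.5.0), aligned them to GRCm38/mm10 (Bowtie2 2.3.4.1), removed duplicates (SAMtools 1.9) and called peaks per library at a p of 0.01, with MACS 1.4.3 (ATRX, H3K9me3) or 1.4.2 (G4) against input and MACS 2.2.7.1 (ATAC) without input. ATRX and H3K9me3 lists of the same condition and replicate share an input, and so do both G4 replicates of a condition. The deposited ATRX, H3K9me3 and G4 lists give tag counts per peak, a score that is the negative log10 p times 10, and a ratio, the fold enrichment over the local background; the deposited ATAC lists give the pileup signal, the fold enrichment and the −log10 p. None of these is scaled between libraries.

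Peaks were intersected (at least 1 bp) with the windows, bodies and spans of the 38 genes and of all genes in RefSeq GRCm38 (Python 3.11.15, pandas 2.3.3, numpy 2.4.6), with interval and motif functions tested on simulated data. Shares per library were compared by two-sided exact permutation (2 against 2) or two-sided exact sign-flip tests (4 libraries against all genes or flanks). Genes are named if an ATRX or H3K9me3 peak lay within 1 kb in any list, if G4 or ATAC was in both lists of 1 condition only, if among the first 6 by rank with G4 or ATAC in all 4 lists, or if without ATAC, and other genes named were chosen after their values were seen. The members, the lists of other genes and the tests were chosen with earlier results of these data known. Alternatives changed the peak threshold and number, the window, the overlap, the start sites, the flanks and the replicates used. The input libraries were not used here.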

Additional observations from a re-analysis of the deposited data

How the results depend on the processing

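With 2 libraries per condition none of the 24 results could pass 0.05, so only sizes and signs can be compared. Of 205 alternative values, 169 kept the sign or stayed at 0, 13 moved to or away from 0, and 23 turned the sign. A value that kept its sign can still differ much in size, since the spread was not part of this count. The replicate block described below reuses the main values, so its values are among the 169 by construction. The causes were not tested.

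At a −log10 p of 5 or more, ATRX differences between conditions in TSS, gene bodies and coverage were 0, and the excess was −0.142 points over all TSS and −0.143 over the flanks. The H3K9me3 differences in bodies and coverage were 0 and the excess over all TSS was −0.751. For ATAC the TSS difference was 1.32, the body difference −2.63 and the excess over all TSS −2.56. No ATRX or H3K9me3 list ratio could be computed there, nor the ATRX one without scramble KD replicate 1, since a condition had no peak in the spans.

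When each list was trimmed to equal numbers of its strongest peaks, the G4 coverage difference was −6.36, the ATRX excess over the flanks was −0.0182, the H3K9me3 list ratio 0, its coverage difference −0.0122 and its excess over all TSS −0.0964, and the ATAC differences were −2.63 (TSS), −7.89 (bodies) and −0.734 (coverage).

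With a window of 500 bp, the ATRX TSS difference was 10.53, the H3K9me3 excess was −0.102 and the ATAC TSS difference and excess were −2.63 and −2.71. With 2 kb the H3K9me3 excess was −1.13. With peak centres, H3K9me3 gave −1.32 for the TSS difference and −0.428 for the excess, and ATAC −2.63 and −1.18. With any curated start the ATAC TSS difference was 1.32, and with flanks of 50 kb the H3K9me3 excess over them was 0.254.

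Leaving out 1 library at a time, the ATRX excess over the flanks ran from −0.120 (without TERRA KD replicate 2) to 0.783, H3K9me3 bodies from 0 to 2.63 and coverage from −0.0325 to 0.386, the G4 list ratio from −1.40 to 0.33 (log2) and coverage from −27.0 to 3.29, and ATAC bodies from −2.63 to 7.89 and coverage from −0.126 to 0.352. The ATRX TSS difference ran from 14.5 to 19.7 points, and the G4 one from −67.1 (without TERRA KD replicate 1) over −19.7 (without scramble KD replicate 2) to −1.32 (without TERRA KD replicate 2), and G4 bodies were −61.8 and −1.32 without TERRA KD replicates 1 and 2. The H3K9me3 list ratio was 1.59 and 0.066 (log2) without scramble KD replicates 1 and 2.

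With the replicate block, that is, pairing libraries of the same number, the values are the same by construction (17.1 points for ATRX TSS and −34.2 for G4 TSS). Only the p can differ. The exact sign-flip p over 2 pairs was 0.5, the smallest possible, or 1.0, so the block could change no call. The deviations of same-numbered libraries in stretches of 1000000 bp correlated with r = 0.0498 (ATRX), 0.315 (H3K9me3), 0.584 (G4) and 0.109 (ATAC), and the labels give no shared batch.

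The lists hold no coverage between peaks and libraries of unequal depth, 4104486 against 15506154 tags for ATRX and 2961038 against 24588605 for G4, so absence of a peak limits no level of binding.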
